A study of Mus musculus with 18 samples.

Results

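The transcripts described here are 10 genes of neutrophils and monocytes, measured in mouse bone marrow cells that had been sorted as B cells. They were chosen by name from the gene rows of the deposited count tables, S100a8, S100a9, Elane, Mpo, Prtn3, Ngp, Camp, Lcn2, Lyz2 and Csf1r, and all 10 had a single row among the 25965 rows of each table. Cells from the femurs of C57BL/6 mice aged 12 to 16 months were selected as positive for CD45.2 and B220 and negative for Mac1, the integrin of neutrophils and monocytes that is encoded by Itgam and Itgb2. The control animals were Smchd1[del/+] Vav.Cre[T/+], with 1 deleted allele of the chromatin silencing gene Smchd1, and the others were Smchd1[del/del] Vav.Cre[T/+]. No group was free of Cre or of a deleted allele, and Vav.Cre is known to act throughout the blood lineages and not in B cells alone. There were 5 del/+ and 5 del/del female libraries and 4 del/+ and 4 del/del male libraries, 1 animal number each.

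Neutrophils are made in the marrow in steps that are marked by their granule proteins. Promyelocytes fill the primary granules with myeloperoxidase (Mpo) and serine proteases (Elane, Prtn3), myelocytes then make secondary granule proteins (Ngp, Camp, Lcn2), and S100a8 and S100a9, the subunits of calprotectin, dominate the cytosol of the maturing cell. Lyz2 encodes the lysozyme of neutrophils, monocytes and macrophages, and Csf1r the receptor for the growth factor of monocytes and macrophages. Early myeloid genes are classically driven by the ETS factor PU.1 and granule genes by C/EBP factors, in particular C/EBP epsilon for the secondary granules.

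Short promoter stretches are shown as background to the 10 genes. Whether these sequences had a part in the levels was not tested. RefSeq promoter sequences (GRCm38.p6) were found for 9 of the 10. A PU.1 core, AGGAAGT on either strand, lay in the 250 bases before the start of 5 of these 9, Elane, Mpo, Prtn3, S100a8 and Lyz2, and in 7.69% of all 32851 promoters of the table. A C/EBP-like sequence, TTGCNNAA on either strand, lay in the same window of 3, Ngp, Lcn2 and S100a9, and in 9.56% of all promoters. No gene of the 9 held both, and Camp held neither. The matches did not follow the groups of correlated genes described below. S100a8 and Lyz2 held the PU.1 core, as did Elane, Mpo and Prtn3, while S100a9 held the C/EBP-like sequence. The motif letters were chosen with the sequences in view, so these counts are a description. Capitals mark the match, each stretch is read along its gene, and matches lay 84, 94, 172, 138 and 236 bases before the RefSeq start. Ngp had a second C/EBP-like match, not shown, 11 bases before its RefSeq start on the other strand. This match and the Prtn3 stretch lie inside the spans of their counted rows given below. The RefSeq starts of Ngp and Prtn3 are thus not the starts of those rows.
Elane (chr10:79886204-79886258, + strand): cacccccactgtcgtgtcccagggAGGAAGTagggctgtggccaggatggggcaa
Prtn3 (chr10:79879549-79879603, + strand): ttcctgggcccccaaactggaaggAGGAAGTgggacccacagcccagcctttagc
S100a8 (chr3:90668875-90668929, + strand): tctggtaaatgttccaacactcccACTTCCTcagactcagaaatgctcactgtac
Ngp (chr9:110419646-110419701, + strand): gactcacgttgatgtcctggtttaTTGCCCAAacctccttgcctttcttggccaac
S100a9 (chr3:90695926-90695971, - strand): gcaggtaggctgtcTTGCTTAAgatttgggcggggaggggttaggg

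Total counts per library ranged from 9788112 to 29405395. B cell genes were high, with Cd79b, a subunit of the B cell receptor, between 1564 and 1943 CPM (counts scaled to library size with TMM factors over all 18 libraries, the unit of all levels here unless a length is named). Smchd1 fell from 248 ± 17.4 to 141 ± 17.6 CPM (SD, n = 5 and 5) in females, a log2 change of -0.82 with SE 0.092 (adjusted p = 0.00119, edgeR), and from 298 ± 21.6 to 177 ± 15.7 CPM (SD, n = 4 and 4) in males, a change of -0.74 with SE 0.082 (adjusted p = 0.00888, edgeR). The genes of the gate were present, with Itgam between 34.9 and 111 CPM and Itgb2, which B cells also express, between 133 and 260 CPM.

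All 10 genes were read in every library, from 208 counts of Csf1r to 37299 counts of S100a9, so none was lost to the filter on low counts. Together they took 0.266% ± 0.126 of the counts (SD, n = 18). The share was 0.133%, 0.319%, 0.143%, 0.270% and 0.292% in female del/+ libraries 1 to 5 and 0.153%, 0.0893%, 0.468%, 0.167% and 0.462% in female del/del libraries 1 to 5. It was 0.291%, 0.279%, 0.163% and 0.309% in male del/+ libraries 1 to 4 and 0.318%, 0.173%, 0.539% and 0.222% in male del/del libraries 1 to 4. The highest and the lowest share were thus 6.04-fold apart, both in del/del libraries, and 3 del/del libraries lay above every del/+ library. In bulk samples more myeloid cells and more RNA per myeloid cell cannot be told apart.

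Levels per length (CPM per kb of exon, GENCODE M21) ran in nearly the same order in every library. S100a9 came first of the 10 in all 18, at a mean of 1471 CPM per kb and a range of 473 to 3090 CPM per kb, beside a mean of 1238 CPM per kb for Cd79b. S100a8 (751) and Ngp (403) held the next places in all 18. Lyz2 (241.6) and Camp (221) exchanged places between libraries. Lcn2 (58.0), Mpo (43.3) and Elane (38.4) followed in changing order, so these neighbours were not separated beyond their spread, and Prtn3 (18.8) and Csf1r (3.50) were the lowest of the 10 in all libraries.

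The primary granule genes were moderate in level. Mpo (ENSMUSG00000009350, mm10 chromosome 11, 87793581 to 87804413), which makes hypochlorous acid, was at 85.8, 204, 110, 152 and 127 CPM in female del/+ libraries 1 to 5 and at 88.3, 61.3, 112, 76.7 and 163 CPM in female del/del libraries. In males it was at 175, 193, 124 and 209 CPM in del/+ libraries 1 to 4 and at 148, 160, 352 and 125 CPM in del/del libraries. The genotypes overlapped in both sexes, with female del/del library 2 lowest and male del/del library 3 highest. For Mpo 2 of 5 female del/del libraries lay below every female del/+ library and 0 above, and in males 1 lay above and 0 below. Elane, neutrophil elastase (chromosome 10, 79886312 to 79888216), was at 20.5, 47.0, 27.4, 36.7 and 26.6 CPM in female del/+ libraries and at 18.5, 15.8, 25.6, 20.2 and 49.7 CPM in female del/del libraries. Male libraries were at 47.2, 51.8, 31.9 and 53.5 CPM (del/+) and at 40.8, 39.4, 95.2 and 32.7 CPM (del/del). In females 1 del/del library, number 5, lay above every del/+ library, and 3 of 5 lay below every del/+ library. In males again 1, number 3, lay above, and 0 lay below. Prtn3, proteinase 3, the neighbour of Elane (chromosome 10, 79874476 to 79883174), was at 17.4, 39.6, 22.04, 29.0 and 29.8 CPM in female del/+ libraries and at 15.8, 15.9, 22.3, 15.7 and 45.3 CPM in female del/del libraries. In males it was at 38.3, 40.2, 25.2 and 40.3 CPM (del/+) and at 36.1, 31.9, 81.3 and 39.6 CPM (del/del). The same libraries stood above the del/+ range as for Elane, and 3 of 5 female del/del libraries again lay below it. The groups overlapped for both genes.

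The secondary granule genes varied more. Ngp, neutrophilic granule protein (ENSMUSG00000032484, chromosome 9, 110419750 to 110423010), was at 240, 616, 272, 553 and 566 CPM in female del/+ libraries 1 to 5 and at 248, 175, 887, 343 and 900 CPM in female del/del libraries. In male libraries it was at 524, 480, 282 and 553 CPM (del/+) and at 522, 306, 969 and 416 CPM (del/del). Female del/del libraries 3 and 5 and male del/del library 3 lay above every del/+ library of their sex, while the other del/del libraries lay within or below the del/+ range. Camp, the cathelicidin antimicrobial peptide (chromosome 9, 109847375 to 109849456), was at 76.2, 193, 88.0, 172 and 175 CPM in female del/+ libraries and at 86.7, 66.2, 277, 105 and 296 CPM in female del/del libraries. The male values were at 188, 188, 108 and 208 CPM (del/+) and at 173.2, 119.5, 335 and 160 CPM (del/del). It repeated the pattern of Ngp, with the same 3 del/del libraries above the del/+ range of their sex. Lcn2, lipocalin 2, which withholds iron from bacteria (chromosome 2, 32384633 to 32387797), was at 70.6, 179.7, 75.7, 137 and 169 CPM in female del/+ libraries and at 80.2, 51.5, 302, 112 and 324 CPM in female del/del libraries. In males it was at 155, 149, 81.7 and 165 CPM (del/+) and at 173.4, 85.8, 308 and 120.4 CPM (del/del). It was the only one of the 10 to be highest in female del/del library 5, and the groups overlapped.

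Calprotectin transcripts were the most abundant of the 10. S100a9 (ENSMUSG00000056071, chromosome 3, 90692632 to 90695721) was at 388, 887, 386, 734 and 815 CPM in female del/+ libraries 1 to 5 and at 437, 247, 1435, 489 and 1368 CPM in female del/del libraries. In male libraries it was at 856, 792, 478 and 866 CPM (del/+) and at 958, 461, 1613 and 612 CPM (del/del). In each sex 2 del/del libraries lay above and 1 below every del/+ library, and the groups overlapped. S100a8 (chromosome 3, 90669071 to 90670034) was at 252, 612, 256, 566 and 609 CPM in female del/+ libraries and at 293, 160.0, 968, 324 and 819 CPM in female del/del libraries. Levels in males were at 579.6, 535, 319.6 and 654 CPM (del/+) and at 665, 307, 1007 and 457 CPM (del/del). The libraries at its ends were those of S100a9, and the groups overlapped. The level of S100a9 did not track library size in a way that passed a test: over 18 libraries, both centred on the mean of each sex and genotype, Pearson's r with log2 total counts was -0.30 (permutation p = 0.142) and Spearman's rho -0.31 (permutation p = 0.205), and r was -0.21 without the 2 libraries farthest from the median, -0.35 in females and -0.16 in males.

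**Figure D1:**
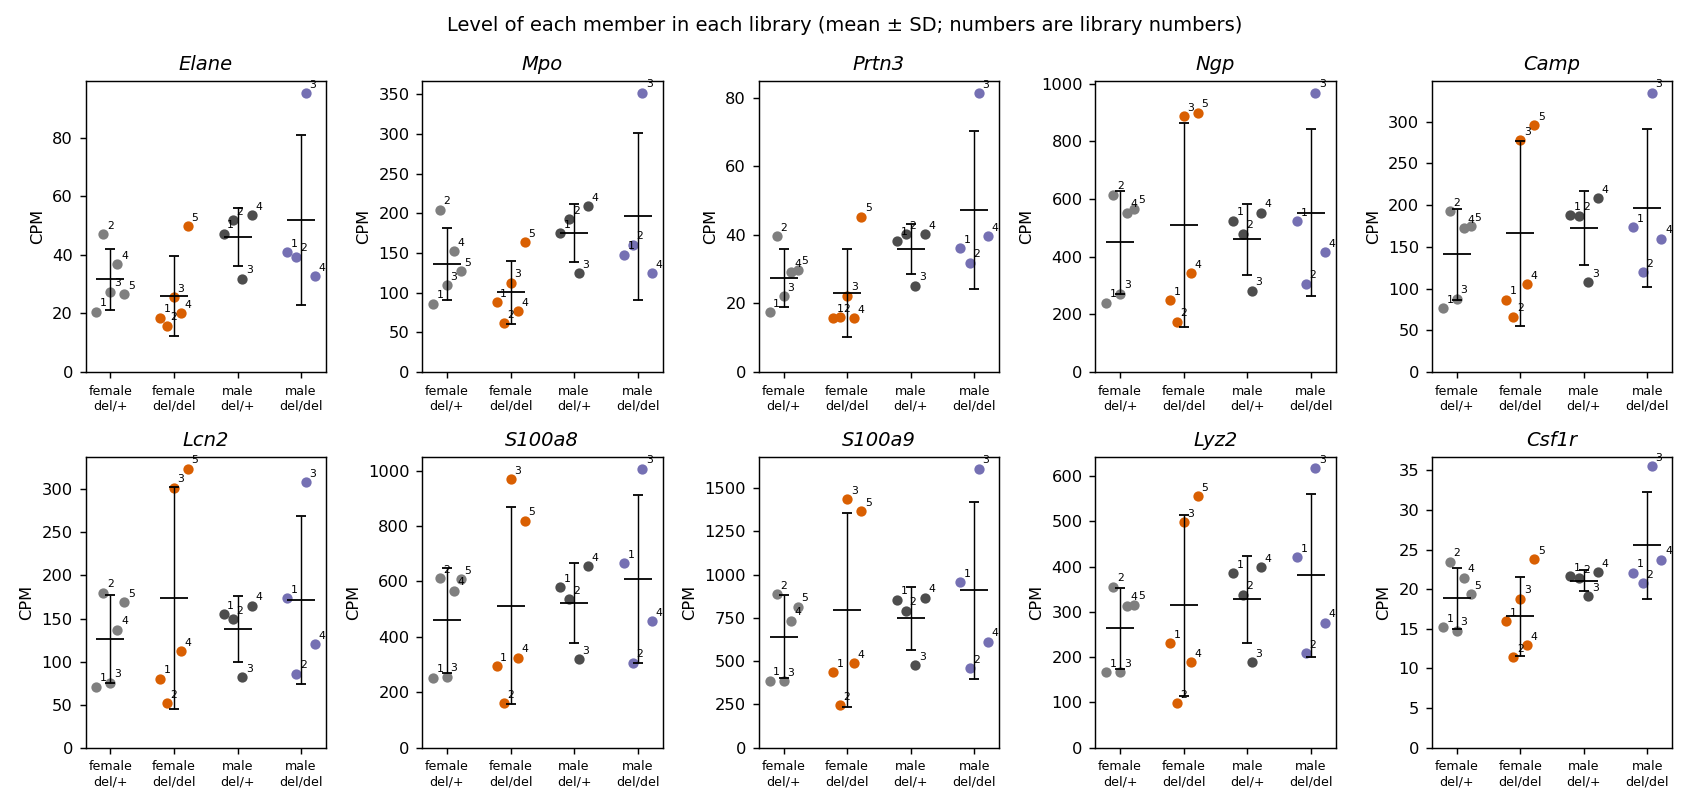
Level of each of the 10 genes in CPM (linear axes from 0), 1 point per library labelled with its library number, by sex and genotype; the bar and whiskers are the mean ± SD. Male del/del library 3 is the highest point for 9 of the 10 genes and female del/del library 2 the lowest for 9 of 10.

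Lyz2 and Csf1r differed in how far they spread. Lyz2 (chromosome 10, 117277334 to 117282274) was at 167.1, 356, 166.8, 313 and 316 CPM in female del/+ libraries and at 231, 98.4, 498, 189.3 and 556 CPM in female del/del libraries. In males it was at 386, 338, 188 and 399 CPM (del/+) and at 420.5, 208, 617 and 276 CPM (del/del), so that the groups overlapped in both sexes. It has a near-identical neighbour, Lyz1, and the sources used here do not say how shared reads were counted, which leaves its level uncertain. Csf1r (ENSMUSG00000024621, chromosome 18, 61105572 to 61132149) was at 15.2, 23.4, 14.7, 21.4 and 19.4 CPM in female del/+ and at 16.0, 11.4, 18.8, 12.9 and 23.8 CPM in female del/del libraries 1 to 5. Male levels were at 21.7, 21.4, 19.1 and 22.2 CPM (del/+) and at 22.1, 20.8, 35.5 and 23.7 CPM (del/del). Its highest and lowest libraries, again male del/del 3 and female del/del 2, were 3.11-fold apart, against 5.06-fold to 6.53-fold for the other 9 genes. As a description, the SD of log2 CPM within sex and genotype was 0.32 for Csf1r, 0.52 to 0.55 for the primary granule genes and 0.72 to 0.83 for the remaining 6, beside a median of 0.21 over 14017 genes.

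The 10 genes moved together from library to library. On log2 CPM centred on the mean of each sex and genotype, all 45 pairs were positively correlated over the 18 libraries (Pearson's r from 0.78 to 0.995, largest adjusted permutation p = 0.00108; Spearman's rho from 0.78 to 0.996, largest adjusted permutation p = 0.00048, both over 45 pairs). The pairs among S100a8, S100a9, Ngp, Camp, Lcn2 and Lyz2 were the closest, with r from 0.96 to 0.995. The 3 pairs among Elane, Mpo and Prtn3 lay between 0.92 and 0.97. Pairs that joined a primary granule gene to one of those 6 were lower, from 0.78 to 0.89, and Csf1r was at 0.88 to 0.92 with every other gene. Within sexes r was 0.77 to 0.997 in females and 0.77 to 0.996 in males, and without the 2 libraries farthest from the median of the first gene it was 0.73 to 0.995. The values share each library's scaling factor.

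**Figure D2:**
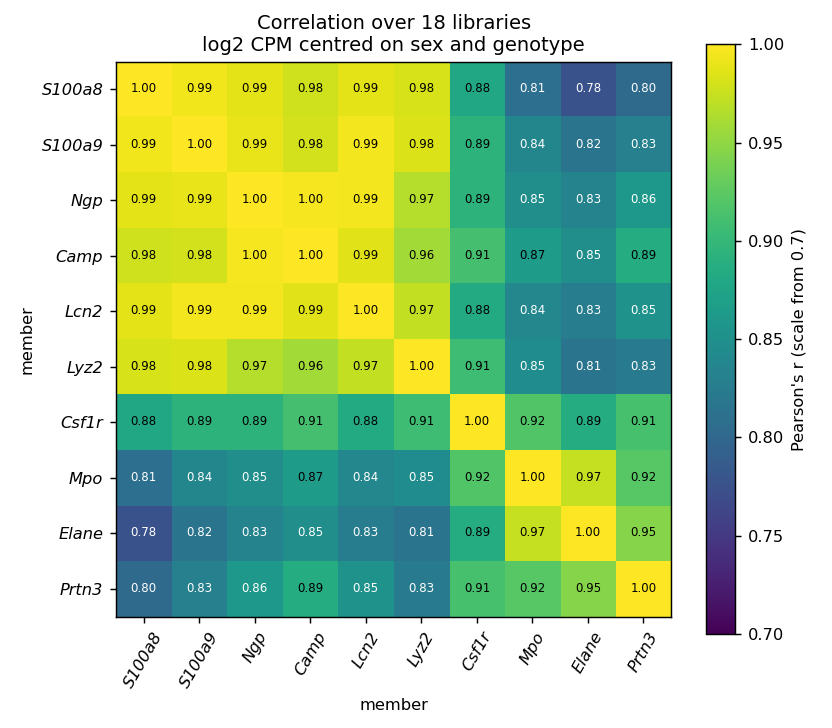
Pearson's r between the 10 genes (rows and columns) over 18 libraries, on log2 CPM centred on sex and genotype; the colour scale starts at 0.7. Calprotectin, secondary granule genes and Lyz2 form one block (0.96 and above), the primary granule genes another (0.92 and above), and the values that join the blocks are lower (0.78 to 0.89).

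Ratios within a library showed the same grouping. S100a9 stood at 1.47 ± 0.0966 times S100a8 in CPM (SD, n = 18, from 1.30 to 1.67), although both genes varied more than 6-fold. Ngp stood at 2.92 ± 0.263 times Camp (2.56 to 3.27). The summed secondary granule genes, in contrast, were 2.21 to 9.15 times the summed primary granule genes. Female del/del library 3 had the highest of these ratios, 9.15, and the next was 5.88 in female del/del library 5. Male del/del library 3, which had the largest share of counts of all, had a ratio of 3.05, within the male del/+ range of 2.60 to 3.34. The 3 del/del libraries with the most myeloid reads thus had unlike granule compositions: Mpo was at 112 and 352 CPM in female and male del/del libraries 3, while Ngp was at 887 and 969 CPM.

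**Figure D3:**
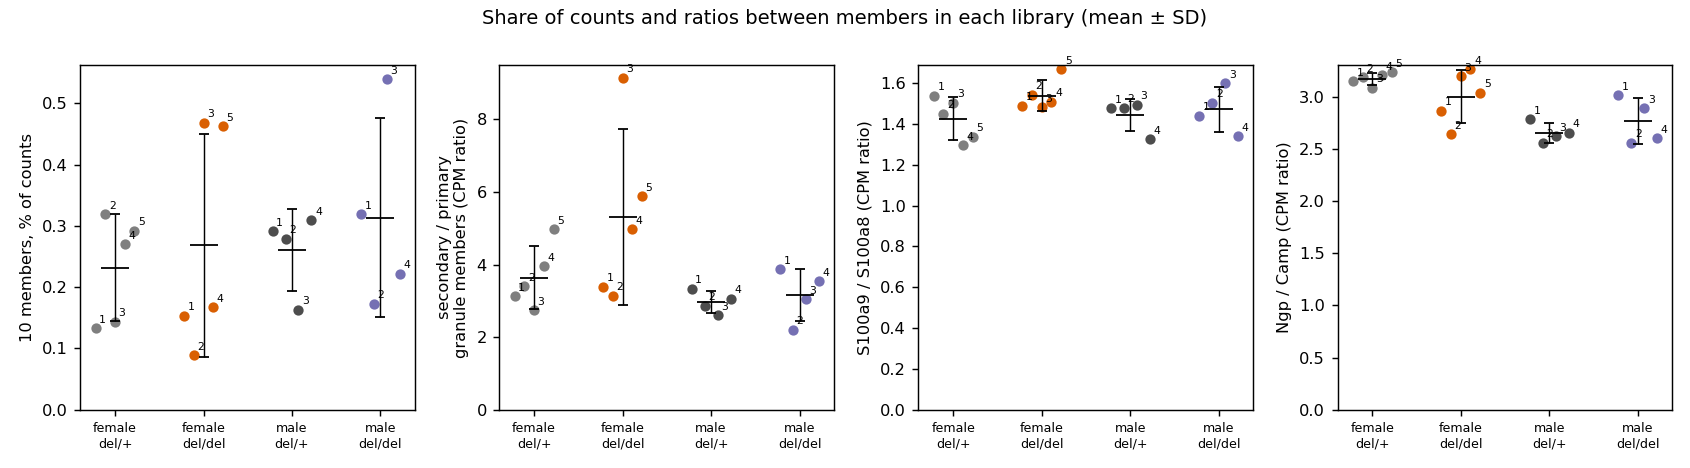
From left to right, the share of counts in the 10 genes (%), the ratio of summed secondary to summed primary granule genes, and the ratios S100a9 to S100a8 and Ngp to Camp (CPM ratios, axes from 0), with 1 numbered point per library and mean ± SD by group. The granule ratio runs from 2.21 to 9.15, while S100a9 to S100a8 stays between 1.30 and 1.67.

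Other genes followed the same libraries. Of 10259 other genes whose mean log2 CPM reached 1, those most like S100a8 over the 18 libraries, by Spearman's rho on the centred values, were Hp, which encodes haptoglobin (rho 0.99), the neutrophil surface gene Cd177 (0.98), Anxa1 (0.98), Itgb2l (0.97) and Crispld2 (0.97). Those most like Mpo were Ctsg, the primary granule protease cathepsin G (0.94), Hk3 (0.93), St3gal5 (0.93), S100a4 (0.92) and Cebpa, the factor that opens the myeloid path (0.91). Those most like Csf1r were St3gal2 (0.95), Cebpa (0.95), Ugt1a6a (0.94), Hp (0.94) and Chi3l3 (0.94). These are descriptions, picked as the highest of many.

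The genotype comparison asked whether loss of the second Smchd1 allele changed these levels, and no gene of the 10 passed the test in either sex or in both. In females 34 of 13501 tested genes were called at an adjusted p under 0.05 (0.252%), in males 16 of 13413 (0.119%), and over both sexes 78 of 14017 (0.556%). Of the 10 genes, 0 were called in each of these, 0 were at an unadjusted p under 0.05, and DESeq2 and voom called 0 as well. The smallest adjusted p among them was 0.975 in females, 0.9998 in males and 0.832 over both sexes (edgeR quasi-likelihood test).

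The primary granule genes had negative female values. Mpo had a log2 fold change of -0.44 (SE 0.26, 95% interval -0.96 to 0.077) in females and 0.18 (SE 0.31, -0.42 to 0.78) in males. Elane was at -0.29 (SE 0.30) and 0.19 (SE 0.32), and Prtn3 at -0.26 (SE 0.31) and 0.41 (SE 0.29). The female values of Elane, Mpo and Prtn3 were -0.66, -0.68 and -0.66 without del/del library 5, where 3 of the 10 genes were at an unadjusted p under 0.05 and 0 were called, and -0.094, -0.24 and -0.090 without del/+ library 2. The male value of Prtn3 was 0.0049 without del/del library 3. The difference between the sexes was tested as an interaction of sex and genotype over all 18 libraries, which was 0.60 (SE 0.44) for Mpo, 0.45 (SE 0.48) for Elane and 0.65 (SE 0.46) for Prtn3, each at an adjusted p of 0.99994. Of the 14017 genes in that test edgeR called 0 (0%), with 1.45% at an unadjusted p under 0.05, voom called 0 and DESeq2 4, none among the 10.

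The later neutrophil genes and Lyz2 had positive values with wide intervals. S100a9 was at 0.30 (SE 0.44, 95% interval -0.56 to 1.16) in females and 0.30 (SE 0.35, -0.39 to 0.98) in males. Lcn2 had the largest value of the 10 over both sexes, 0.40 (SE 0.33, -0.24 to 1.04). S100a8, Ngp, Camp and Lyz2 lay between 0.15 and 0.24 in females and between 0.20 and 0.28 in males. Csf1r was at -0.19 (SE 0.20, -0.58 to 0.21) in females, 0.29 (SE 0.16, -0.031 to 0.61) in males and 0.025 (SE 0.15, -0.26 to 0.31) over both sexes. The widest of the intervals, that of Lcn2 in females, ran from -0.46 to 1.36.

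Single libraries set the sign of many of these values. In males all 10 were positive, with a median of 0.26 beside 0.0013 over all tested genes, and 8 of the 10 turned negative without del/del library 3, among them S100a9 at -0.13 and Mpo at -0.27. In females 6 of 10 were positive, with a median of 0.16 beside -0.0044 over all tested genes. Without female del/del library 3 Ngp went to -0.13, Camp to -0.040, S100a8 to -0.22 and S100a9 to -0.032, and without female del/del library 5 Ngp went to -0.13, Camp to -0.077, S100a8 to -0.079 and Lyz2 to -0.059. S100a8 was also at -0.0077 and -0.0023 without female del/+ libraries 1 and 3. The authors' deposited table gave S100a9 0.32 (adjusted p = 0.976) in females and 0.30 (adjusted p = 0.9998) in males by edgeR, and none of the 10 under 0.05 in either sex.

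**Figure D4:**
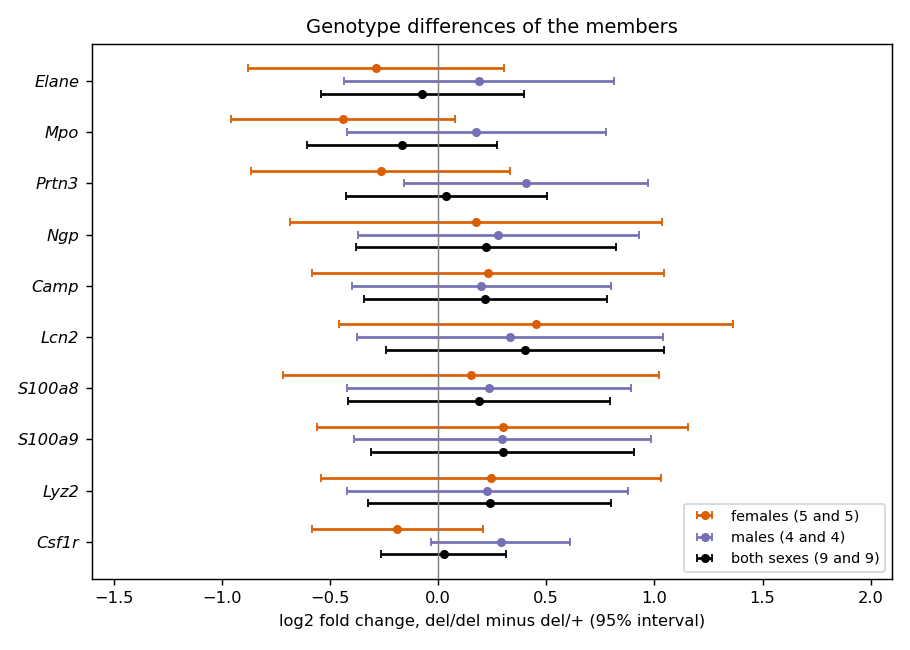
Log2 fold change of del/del minus del/+ libraries with its 95% interval (x axis) for each of the 10 genes (y axis), in females (5 and 5 libraries), males (4 and 4) and both sexes (9 and 9), from the edgeR quasi-likelihood fits. Every interval spans 0, from Mpo at -0.44 in females to Lcn2 at 0.45 in females.

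The spread between libraries was described beside the means. The SD of log2 CPM was larger among del/del than among del/+ libraries for 10 of the 10 genes in females and 10 of 10 in males, beside 62.7% and 47.3% of all 14017 genes. For S100a9 it was 1.11 against 0.59 in females and 0.79 against 0.41 in males. Since the 10 genes moved together, these counts rest on a few libraries and were not tested: without male del/del library 3 the male count was 5, and without female del/del library 5 the female count was 7.

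Longer lists of myeloid genes, which include the 10, held 0 called genes as well, beside 0.252% of all tested genes in females and 0.119% in males. Over all tested genes 6594 of 13501 were positive in females and 6785 of 13413 in males. At an unadjusted p under 0.05 (edgeR) were 1 primary granule gene in females and 1 secondary and tertiary granule gene in males. The shares of all genes were 4.30% and 3.34%. Of the mature neutrophil genes 0 were, and of the monocyte and macrophage genes 0. Of 8 genes listed as primary granule genes, 0 were called in either sex or over both, with a median log2 fold change of -0.37 in females and 0.22 in males. This list is mixed. It holds Hp, which followed S100a8 most closely and had the only positive female value (0.18), and Nkg7, which is also among the T and NK cell genes. Of 10 secondary and tertiary granule genes, all 10 were positive and 0 called in both sexes, with medians of 0.30 and 0.28. These signs are not independent counts. Ngp, Camp and Lcn2 all turned negative in males without del/del library 3, and listed genes outside the 10 were not followed in such fits. The list includes Ltf, lactoferrin, at 93.8 to 609 CPM over the libraries, and Cybb, the oxidase subunit that B cells also express, at 222 to 518 CPM. Of 8 mature neutrophil genes 0 were called, with medians of 0.30 and 0.29. Of 15 monocyte and macrophage genes 14 were tested in each sex, of which 8 were positive in females and 14 in males and 0 were called. After Lyz2, the highest of this list were Ly6c2 at 39.6 to 130 CPM, F13a1 at 16.8 to 73.7 CPM and Ccr2 at 18.6 to 58.6 CPM. The macrophage complement genes C1qa, C1qb and C1qc, by contrast, stayed at or under 3.67 CPM in every library.

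Markers of other cell types lay beside these values. Summed plasmacytoid dendritic cell genes ranged from 576 to 1015 CPM in female del/+, 597 to 1287 in female del/del, 385 to 440 in male del/+ and 373 to 563 in male del/del libraries, with 8 of 8 positive in both sexes. Of the 8, 0 were called in either sex and 1 over both sexes, beside 0.556% of all tested genes. That 1 was Il3ra, the interleukin 3 receptor subunit, at 0.55 on the log2 scale with SE 0.083 (adjusted p = 0.00111, edgeR). At an unadjusted p under 0.05 were 2 in females, 4 in males and 4 over both sexes (all genes 4.30%, 3.34% and 6.76%). Summed erythroid genes ranged from 144 to 636 CPM in female del/+, 153 to 258 in female del/del, 191 to 1117 in male del/+ and 233 to 373 in male del/del libraries. Of 8 erythroid genes tested 0 were positive in either sex, with medians of -1.08 in females and -0.75 in males and 0 called by edgeR, and 7 were at an unadjusted p under 0.05 in females (beside 4.30% of all genes), 0 in males (3.34%) and 7 over both sexes (6.76%). Of 6 T and NK cell genes tested 2 were positive in females and 0 in males, with medians of -0.27 and -0.27 and 0 called. Of these 6, 0 in females, 1 in males and 3 over both sexes were at an unadjusted p under 0.05 (all genes 4.30%, 3.34% and 6.76%). Their part in the levels of the 10 myeloid genes was not tested. Summed B cell genes varied little, between 6403 and 8615 CPM in all libraries.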

How the data were processed

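PolyA RNA was sequenced. The authors deposited a table of unnormalized counts for females and another for males, with 4 columns of group means (a signal not used here). Per the submitters' processing notes, Trim Galore, TopHat, the builds mm10 and GRCm38 and edgeR 3.32.1 were used; the counting program, annotation and strand setting are not given in the sources used here. The authors' deposited tables also hold log2 fold changes, an F statistic (a score), p-values and adjusted p-values. Rows without an identifier (56, at most 0.0846% of counts) carried a symbol and were kept.

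Counts were tested in R 4.3.3 with edgeR 4.0.16 (filterByExpr at minimum count 10 and minimum total 15, TMM factors, quasi-likelihood test of del/del against del/+, Benjamini-Hochberg adjustment over all tested genes), per sex, over both sexes with sex as a term, and for the interaction. DESeq2 1.42.0 and voom from limma 3.58.1 were alternatives. The fits were tested on simulated data with the same dispersion for every gene and larger changes than those estimated for the 10. Their power for the 10 was thus not tested. The SE is the log2 fold change divided by the root of F, and intervals are 1.96 SE to each side. Log2 CPM used a prior count of 2. Correlations were tested by 100000 permutations within groups, two-sided. Those without centring and those without the 2 farthest libraries used permutations that ignored the groups, the latter with fewer draws. P-values measure the spread between animals. Replicate numbers follow accession order.

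The 10 genes and all lists were chosen with earlier results of these data known. Besides the 10, the text names genes among the 4 of highest mean CPM in each list and, by Spearman's rho, the 5 most like S100a8, Mpo and Csf1r. Genes named outside this rule, among them Il3ra, C1qa, C1qb and C1qc, were chosen after their values were seen. Cebpd and Trbc1 were not analysed here.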

Additional observations from a re-analysis of the deposited data

Results flagged for a closer look

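Of 40 groups (10 genes in 4 groups), 6 had a library far from the others by Dixon's criterion. Chance flags about 1 in 20 groups of normally distributed values, and the rule was applied here to CPM without a log scale. The genes move together, so the 6 are not independent. All were primary granule genes. In male del/del library 3 Elane was at 95.2 CPM (next 40.8), Mpo at 352 CPM (next 160) and Prtn3 at 81.3 CPM (next 39.6). In female del/del library 5 Elane was at 49.7 CPM (next 25.6) and Prtn3 at 45.3 CPM (next 22.3). In male del/+ library 3 Prtn3 was low, at 25.2 CPM (next 38.3).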

How the results depend on the processing

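The calls of the 10 genes did not depend on the processing that was tried: 0 were called in females, in males, over both sexes and for the interaction with RLE scaling, without a filter, with DESeq2, with voom and in each fit that left out a library. Likewise 0 were called within each sex with all 18 libraries in one fit, and within each sex and over both with a replicate block of nearest animal numbers. The number of genes called over the whole tables did change, with DESeq2 to 92 in females, 49 in males, 141 over both sexes and 4 for the interaction (34, 16, 78 and 0 with edgeR), and to 58 in females with all 18 libraries. When 1 library was left out these counts were 26 to 41 in females, 5 to 22 in males (5 without male del/+ library 1 or del/del library 3) and 57 to 115 over both sexes. Signs of small values changed. With voom Ngp and S100a8 in females were at -0.041 and -0.059, and the interaction values of Camp, Lcn2, S100a9 and Lyz2 at 0.053, 0.0014, 0.092 and 0.10. With pairs of nearest animal numbers, which the labels do not state, Ngp and S100a8 in females were at -0.016 and -0.040 and Prtn3 over both sexes at -0.049; deviations of such pairs correlated by 0.11 to 0.33 in males and -0.042 to 0.28 in females. The cause of these sign changes was not tested. Log2 fold changes that changed sign when 1 library was left out had these ranges: in females Camp -0.077 to 0.44, Lyz2 -0.059 to 0.48, Ngp -0.13 to 0.40, S100a8 -0.22 to 0.39, S100a9 -0.032 to 0.54; in males Camp -0.19 to 0.37, Elane -0.28 to 0.35, Lcn2 -0.11 to 0.55, Lyz2 -0.11 to 0.42, Mpo -0.27 to 0.34, Ngp -0.14 to 0.47, S100a8 -0.12 to 0.45, S100a9 -0.13 to 0.51; over both sexes Csf1r -0.075 to 0.096, Elane -0.28 to 0.034, Prtn3 -0.15 to 0.14; for the interaction Camp -0.44 to 0.26, Elane -0.013 to 0.83, Lcn2 -0.58 to 0.21, Lyz2 -0.37 to 0.27, Ngp -0.33 to 0.39, S100a8 -0.29 to 0.42, S100a9 -0.45 to 0.30. Those that kept their sign had these: in females Csf1r -0.35 to -0.071, Elane -0.66 to -0.094, Lcn2 0.11 to 0.70, Mpo -0.68 to -0.24, Prtn3 -0.66 to -0.090; in males Csf1r 0.083 to 0.37, Prtn3 0.0049 to 0.55; over both sexes Camp 0.053 to 0.32, Lcn2 0.21 to 0.52, Lyz2 0.076 to 0.36, Mpo -0.37 to -0.048, Ngp 0.050 to 0.34, S100a8 0.00048 to 0.31, S100a9 0.13 to 0.42; for the interaction Csf1r 0.25 to 0.62, Mpo 0.15 to 0.84, Prtn3 0.25 to 1.04. The number of genes with the larger spread in del/del libraries was 7 to 10 in females and 5 to 10 in males when 1 library was left out, an alternative chosen after seeing the data. The number of correlated pairs (45) was 45 without centring, 45 in females, 41 in males and 45 without the 2 farthest libraries, and mean summed CPM moved by less than 1 SD without TMM factors. The lowest count of any of the 10 genes in a library was 208.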

Other observations

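Eosinophil, basophil and mast cell genes are used in no comparison above. Their summed level was 26.1 to 113 CPM in female del/+ and 10.1 to 55.5 CPM in female del/del libraries, and 34.4 to 112 and 44.0 to 127 CPM in males. Of 6 tested in females 0 were positive (median log2 fold change -0.89), of 7 in males 4 (median 0.030), and 0 were called in either sex by edgeR (1 and 0 at an unadjusted p under 0.05, beside 4.30% and 3.34% of all tested genes). Epx, eosinophil peroxidase, was at -1.38 (SE 0.64) in females and 0.03 (SE 0.41) in males. In the interaction of sex and genotype 7 of 7 were positive (median 0.50), 1 was at an unadjusted p under 0.05 beside 1.45% of all genes, and edgeR called 0.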
